A study of Mus musculus with 20 samples.

Results

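The enzymes of mitochondrial fatty acid oxidation were followed here as 10 genes (Cpt1a, Cpt2, Mlycd, Acadvl, Acadl, Acadm, Acads, Eci1, Hadhb and Acaa2). They were taken by name, as all probes of a custom mouse oligonucleotide array whose single gene symbol in the platform annotation was one of the 10. This gave 27 of the 23493 probes and 10 of the 15252 genes that a single symbol named. Cpt1a had 5 probes, Cpt2 and Mlycd 4 each, Acadvl, Acadl and Acads 3 each, and Acadm 2, while Eci1, Hadhb and Acaa2 had 1 each.

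The study asked what lowering the mRNA of Ppara, a nuclear receptor, does to gene expression in mouse liver. All 20 mice received a hydrodynamic tail vein injection, in which a volume equal to 10% of body weight is pushed in within seconds so that much of it reaches the liver, and livers were collected 48 h later. There were 4 mice in each of 5 groups. The vehicle group received Ringer's solution alone, and the other groups received 40 µg of siRNA in it. The PPARa-M siRNA and the PPARa siRNA were directed at different fragments of the Ppara mRNA, and the SEAP-M and GL3 siRNAs, directed at reporter genes, served as controls. The meaning of the suffix M, and the strain, age and sex of the mice, are not given in the labels. The SEAP-M siRNA was taken as the control of the PPARa-M siRNA because both carry the suffix, and the GL3 siRNA as the control of the PPARa siRNA. The labels count more vehicle profiles than the 4 used here, and the others were not analysed here. Whole liver RNA was measured, so fewer cells of a type and less RNA per cell cannot be told apart.

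Fatty acids are burned inside mitochondria. Long-chain acyl groups enter through the carnitine shuttle, and a cycle of dehydrogenation, hydration, a further dehydrogenation and thiolysis then shortens the chain and releases acetyl-CoA. Malonyl-CoA, the building block of fatty acid synthesis, blocks entry. In liver this pathway feeds ketone body synthesis during fasting, and PPAR-alpha, the protein that Ppara encodes, is known as an activator of many of its genes, acting with RXR at paired copies of the motif AGGTCA.

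Each array set the liver RNA of a single mouse against pooled RNA of 4 vehicle mice, and the deposited value is a log10 ratio. Values are given here as log2 ratios, so that 0 is the level of the pool and -1 is a level of 50% of it. Whether the pooled mice were also the arrayed vehicle mice is not given in the labels. The direction, mouse over pool, is likely rather than stated. It rests on the titles, which put the pool before the mouse, with Cy3 before Cy5 on every array, and on the lowered Ppara described in the study's legends. The fall of Ppara below is therefore part of that basis, and with the ratio turned every difference would change sign. A gene's level is the mean of its probes. Differences between groups were fitted with limma over all 20 arrays, and a gene is called where the p, adjusted by Benjamini-Hochberg over all 15252 genes, was under 0.05. The array medians lay between -0.0093 and 0.006 on the log10 scale and the interquartile ranges between 0.0442 and 0.1245, the widest being that of PPARa-M siRNA mouse B. The files hold no intensities, so neither a level relative to background nor the presence of a cell type's markers could be read, and precision is limited by 4 arrays a group.

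Promoter sequences were taken for the enzymes to show what lies before the start of the genes that the results turn on. The table (RefSeq, assembly GRCm38.p6) matched 9 of the 10 genes, all except Acaa2. The start is that of the promoter table, which lies 975 bases inside the RefSeq gene record of Cpt1a, 42 bases inside that of Mlycd and at its end for the other 7 genes. The 250 bases before this start are printed for Eci1, Cpt1a and Mlycd, whose levels separated the PPARa-M siRNA mice from the SEAP-M mice, and for Acadm, whose levels did not. Capitals mark the motif AGGTCA, which reads TGACCT where it lies on the opposite strand.
Eci1 (chr17:24426433-24426682, plus strand): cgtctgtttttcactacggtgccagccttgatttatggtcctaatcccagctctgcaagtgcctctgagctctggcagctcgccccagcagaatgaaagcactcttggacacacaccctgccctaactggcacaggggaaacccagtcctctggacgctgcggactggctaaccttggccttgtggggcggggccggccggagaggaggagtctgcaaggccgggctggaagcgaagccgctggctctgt
Cpt1a (chr19:3323051-3323300, plus strand): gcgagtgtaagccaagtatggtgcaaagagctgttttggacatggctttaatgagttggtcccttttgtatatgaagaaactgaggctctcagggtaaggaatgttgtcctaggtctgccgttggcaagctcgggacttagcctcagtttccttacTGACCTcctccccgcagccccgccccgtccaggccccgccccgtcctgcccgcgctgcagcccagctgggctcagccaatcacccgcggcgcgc
Mlycd (chr8:119394644-119394893, plus strand): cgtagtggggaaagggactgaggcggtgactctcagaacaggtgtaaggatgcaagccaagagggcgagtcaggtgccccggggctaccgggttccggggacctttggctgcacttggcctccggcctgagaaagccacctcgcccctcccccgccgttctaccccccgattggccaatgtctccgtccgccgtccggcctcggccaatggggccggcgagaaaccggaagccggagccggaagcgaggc
Acadm (chr3:153944644-153944893, minus strand): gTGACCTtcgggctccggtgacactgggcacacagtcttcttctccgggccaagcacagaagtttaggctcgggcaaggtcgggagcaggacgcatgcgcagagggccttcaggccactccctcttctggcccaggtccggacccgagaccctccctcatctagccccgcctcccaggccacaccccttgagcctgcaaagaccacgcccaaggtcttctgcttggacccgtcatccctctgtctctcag
On either strand the motif was found in 3 of the 9 promoters, those of Cpt1a (opposite strand, at position -94), Acadm (opposite strand, -249) and Acadvl (same strand, -87), counted in bases from the start. It was found in 13.8% of 27025 promoters of the same length. The motif repeated in the same direction after 1 base was found in 0 of the 9 and in 0.037% of all promoters, and with up to 2 mismatches in 0 of the 9 and in 3.18%. Eci1 and Mlycd did not have these letters in this window. These are matches of letters and were not tested against binding.

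Ppara, the targeted gene, was measured by 4 probes. In the PPARa-M siRNA mice its log2 ratio was -0.59, -1.05, -0.59 and -0.62, and in the SEAP-M mice 0.80, -0.16, 0.12 and -0.07. The groups did not overlap, and the level was 54.0% of the SEAP-M level, or 185% with the ratio turned (log2 difference -0.89 ± 0.17 SE, limma adjusted p = 0.0104). An exact two-sided permutation test gave p = 0.0286, the smallest that 4 against 4 mice allow. In the PPARa siRNA mice the ratio was 0.09, -0.42, -0.29 and -0.35, against 0.04, 0.20, 0.0046 and 0.15 in the GL3 mice. Here mouse A overlapped the controls, the difference was -0.34 ± 0.17 SE and the limma adjusted p was 1.00 (exact permutation p = 0.0857). SEAP-M mouse A, with the highest Ppara of all 20 mice, and PPARa-M mouse B, with the lowest, entered every comparison of their groups. Without SEAP-M mouse A the difference between the PPARa-M and SEAP-M groups was -0.68 (limma adjusted p = 0.0217), and without PPARa-M mouse B it was -0.78 (0.0266).

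With the PPARa-M siRNA, 9 of the 10 enzymes had lower mean levels than with the SEAP-M siRNA, and the median difference over the 10 was -0.18, against -0.01 over all 15252 genes. In limma 1 of the 10, Eci1, was called, where 2.54% of all genes were called in either direction. A further 4 (Cpt1a, Cpt2, Mlycd and Acadl) had an unadjusted p under 0.05 only, which 18.8% of all genes had in either direction. In 3 of the 10 (Cpt1a, Mlycd and Eci1) every PPARa-M mouse lay below every SEAP-M mouse, and 6.36% of all genes separated in that direction. The plot of the 10 enzymes by mouse shows these 3 beside genes such as Acads, in which the groups ran together.

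**Figure D1:**
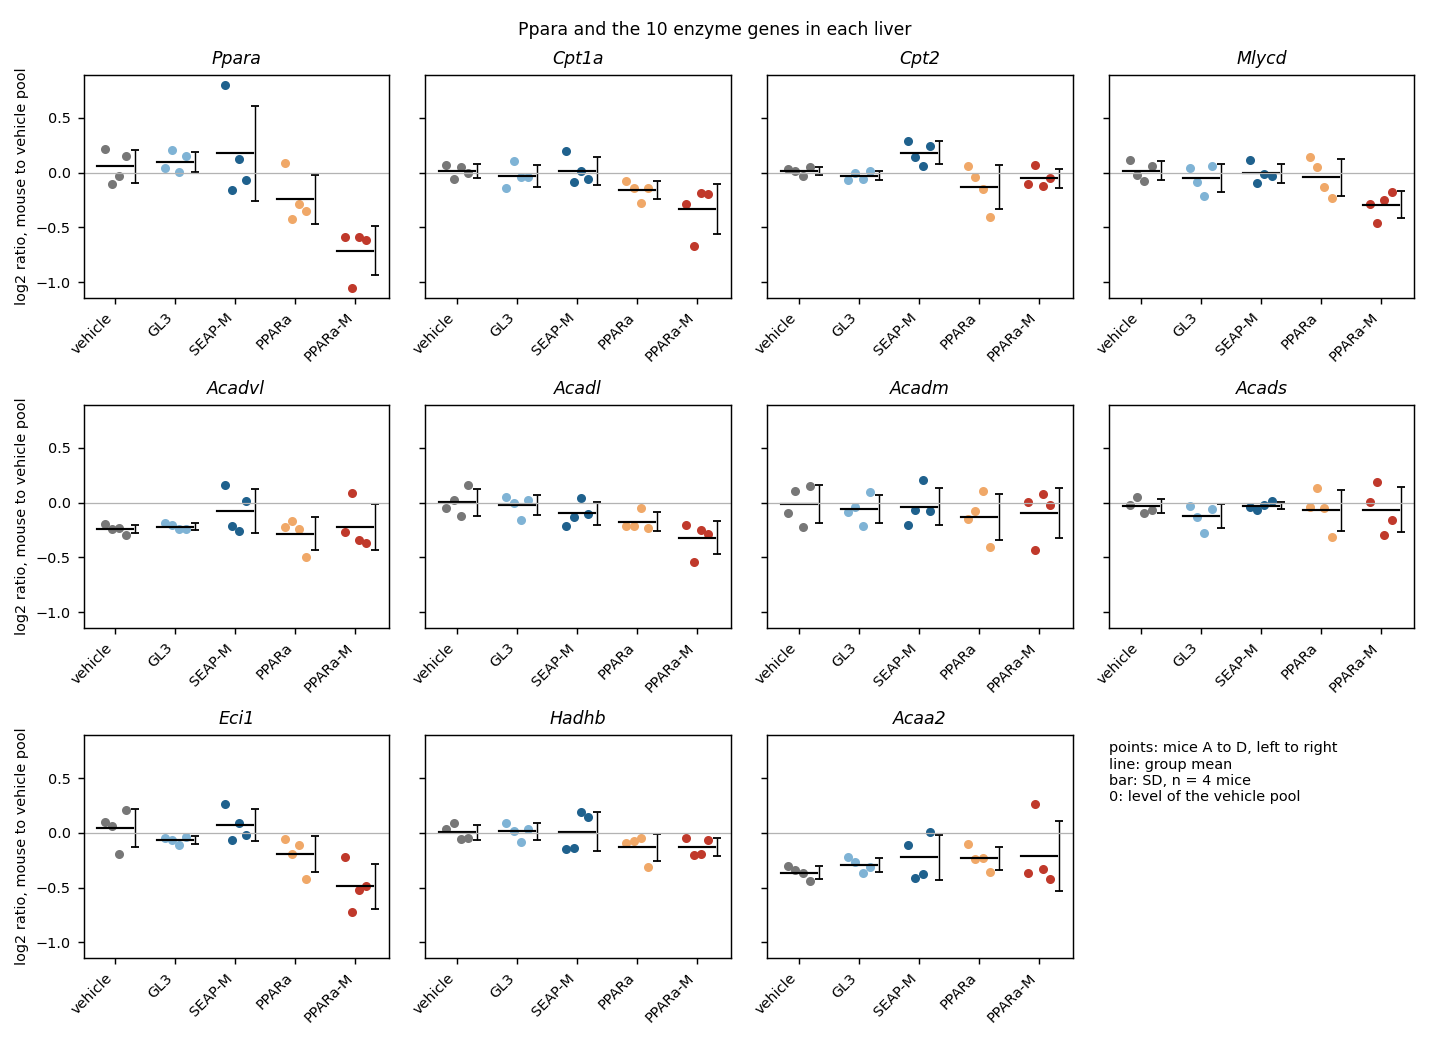
Log2 ratio to the vehicle pool of Ppara and of the 10 enzymes in each of the 20 mice (points, mice A to D from left to right), by group, with the group mean as a line and the SD over 4 mice as a bar. Eci1, Cpt1a and Mlycd of the PPARa-M siRNA mice sit below all 4 SEAP-M mice, and in Acaa2 and Acadvl PPARa-M mouse B sits above the rest of its group.

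Cpt1a, Mlycd and Cpt2 stand for entry into the pathway. Cpt1a encodes the outer membrane carnitine palmitoyltransferase, the step that malonyl-CoA blocks. Its ratio was -0.29, -0.67, -0.19 and -0.20 in the PPARa-M mice and 0.20, -0.09, 0.01 and -0.06 in the SEAP-M mice. The difference was -0.35 ± 0.09 SE (limma adjusted p = 0.0543), a level of 78.5%, and it was -0.24 (adjusted p = 0.107) without PPARa-M mouse B. Mlycd encodes malonyl-CoA decarboxylase, which removes the inhibitor. It stood at -0.29, -0.46, -0.25 and -0.18 in the PPARa-M mice and at 0.12, -0.10, -0.02 and -0.03 in the SEAP-M mice, again without overlap, with a difference of -0.29 ± 0.09 SE (limma adjusted p = 0.0854). Cpt2, the inner membrane partner of Cpt1a, stood at -0.10, 0.07, -0.13 and -0.05 in the PPARa-M mice and at 0.29, 0.14, 0.06 and 0.24 in the SEAP-M mice. Mouse B of the PPARa-M group fell within the range of the controls by a narrow margin, and the difference was -0.24 ± 0.08 SE (limma adjusted p = 0.122). The SEAP-M mice also had more Cpt2 than the vehicle mice, by 0.17 (95% interval -0.0027 to 0.34, limma adjusted p = 0.828).

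The acyl-CoA dehydrogenases open each round of the cycle, on very long (Acadvl), long (Acadl), medium (Acadm) and short (Acads) chains. Acadl stood at -0.20, -0.54, -0.25 and -0.28 in the PPARa-M mice and at -0.21, -0.13, 0.04 and -0.10 in the SEAP-M mice. The groups overlapped through SEAP-M mouse A, and the difference was -0.22 ± 0.08 SE (limma adjusted p = 0.152). Acadm and Acads showed no difference beyond the spread between mice. For Acadm the difference was -0.06 with a 95% interval of -0.32 to 0.21, and for Acads it was -0.04 with an interval of -0.24 to 0.17, so falls of the size seen in Eci1 lay outside both intervals. Acadm also changed sign without PPARa-M mouse B, to 0.05. Acadvl had a difference of -0.15 (limma adjusted p = 0.464), which was -0.25 without PPARa-M mouse B and -0.07 without SEAP-M mouse A, and its probes disagreed, as described below with the values that many probes shared.

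Eci1 encodes the enoyl-CoA isomerase that moves double bonds so that unsaturated fatty acids can pass through the cycle. Its single probe read -0.22, -0.72, -0.52 and -0.49 in the PPARa-M mice, and 0.26, -0.06, 0.09 and -0.02 in the SEAP-M mice. It fell to 68.0% of the SEAP-M level (147% with the ratio turned), with a log2 difference of -0.56 ± 0.11 SE (95% interval -0.78 to -0.33, limma adjusted p = 0.0106), and was lower in 4 of 4 mice. Leaving out each of the 8 arrays of these groups in turn kept the call, with limma adjusted p between 0.00465 and 0.0407. The call was lost when arrays were brought to equal spread (difference -0.41, adjusted p = 0.114), under quantile normalization (-0.41, 0.128), and when only the groups compared were fitted (adjusted p = 0.0984). Those settings removed most calls of the whole array too, from 388 genes to 9, 1 and 41. Hadhb, the thiolase subunit of the trifunctional protein, differed by -0.14 (95% interval -0.31 to 0.03, limma adjusted p = 0.374). Hadha, the other subunit, has no probe named by a single symbol. Acaa2, the medium-chain thiolase, differed by 0.01 (limma adjusted p = 0.976) and by -0.15 without PPARa-M mouse B, and the paragraph on shared values bears on it.

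Over the 5 groups, Eci1 averaged 0.04 ± 0.17 (SD, n = 4 mice in each group) in the vehicle mice, 0.07 ± 0.15 with SEAP-M, -0.06 ± 0.03 with GL3, -0.19 ± 0.16 with PPARa and -0.49 ± 0.21 with PPARa-M siRNA. The ranges of the vehicle, SEAP-M and GL3 mice overlapped, and the PPARa-M mean was the lowest. Cpt1a ran in nearly that order, at 0.02 ± 0.06 with vehicle, 0.01 ± 0.13 with SEAP-M, -0.03 ± 0.10 with GL3, -0.16 ± 0.08 with PPARa and -0.34 ± 0.23 with PPARa-M siRNA. Acadl gave 0.0032 ± 0.12, -0.10 ± 0.11, -0.02 ± 0.09, -0.17 ± 0.09 and -0.32 ± 0.15 for the same groups. In these genes the PPARa mean lay between the controls and the PPARa-M mean. Mlycd differed from that order, since its mean with PPARa siRNA (-0.04 ± 0.17) lay beside those of vehicle (0.02 ± 0.09), SEAP-M (-0.0086 ± 0.09) and GL3 (-0.05 ± 0.13), and its PPARa-M mean was -0.29 ± 0.12. For Cpt2 the lowest mean was that of the PPARa mice, whose values of 0.06, -0.04, -0.15 and -0.40 spanned all 4 PPARa-M values apart from that of mouse B by a narrow margin. Acadm, Acads and Hadhb overlapped in all 5 groups, with single mice from -0.44 to 0.21 in Acadm, from -0.32 to 0.19 in Acads and from -0.31 to 0.19 in Hadhb.

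By step, the median difference was -0.29 for the 3 entry genes, -0.10 for the 4 dehydrogenases and -0.14 for the isomerase and thiolases. These medians are given as a description of 10 genes, and the steps were not tested against each other. In the same comparison the cholangiocyte markers (4 measured of 5, bile duct keratins among them) averaged a log2 ratio of 0.21 to 0.47 in the PPARa-M mice and -0.19 to 0.18 in the SEAP-M mice. Of these, 0 were called in limma. At an unadjusted p under 0.05, which 18.8% of all genes had in either direction, 3 of the 4 were higher. The adipocyte markers (4 measured of 4) lay at -0.36 to -0.07 against 0.01 to 0.09, and the erythroid markers (2 measured of 4) at -0.57 to -0.36 against -0.27 to 0.15. Of the erythroid markers, Hba-a1 has a probe among those at the shared values described below. The hepatocyte markers (6 measured of 9) overlapped, at -0.02 to 0.11 against -0.02 to 0.07. These averages hold markers that moved in opposite directions. At an unadjusted p under 0.05, 1 of the 6 was lower and 2 were higher, and 0 were called in limma. The part of these markers in the enzymes' differences was not tested.

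With the PPARa siRNA, no enzyme was called against the GL3 siRNA. In limma 0 of the 10 passed, and 0 had an unadjusted p under 0.05, where 0.0525% of all genes were called. Their median difference was -0.09 against 0.01 over all genes, with 7 of 10 negative, and in 0 of the 10 did every PPARa mouse lie below every GL3 mouse, where 1.99% of all genes did. Cpt1a stood at -0.08, -0.14, -0.27 and -0.14 in the PPARa mice and at -0.14, 0.10, -0.04 and -0.04 in the GL3 mice, a difference of -0.13 (95% interval -0.33 to 0.07). Eci1 stood at -0.05, -0.20, -0.11 and -0.42 in the PPARa mice and at -0.05, -0.07, -0.11 and -0.04 in the GL3 mice, a difference of -0.13 (95% interval -0.36 to 0.10). Both intervals hold 0 as well as falls of 0.3, so a modest fall could not be told from none with 4 mice a group. Mlycd differed by 0.0071 (95% interval -0.18 to 0.19). Acadl had the lowest difference of the 10, -0.15 (95% interval -0.33 to 0.02).

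PPARa siRNA mouse D was the lowest of its group in 9 of the 10 enzymes. Its mean over the 10 was -0.33, against -0.12 to -0.07 in mice A to C. Other groups held such a mouse too, since GL3 mouse C was the lowest of its group in 8 of the 10 and vehicle mouse C in 7. The mean of GL3 mouse C was -0.18, against -0.07 to -0.045 in the other GL3 mice. The neutrophil markers of PPARa mouse D (5 of 5 measured, granule and S100 genes) averaged 3.95. They averaged -0.21 to 1.00 in the other PPARa mice and -0.28 to 0.84 in the GL3 mice. Without mouse D the median over the 10 enzymes was -0.0028 with 5 of 10 negative, Eci1 differed by -0.05 and Hadhb by -0.08. The differences of Cpt1a (-0.14) and Acadl (-0.13) moved little. The hepatocyte markers were also lower with this siRNA, at -0.33 to -0.15 against -0.12 to 0.04 in the GL3 mice, and the cholangiocyte markers higher, at 0.02 to 0.45 against -0.28 to -0.06. No marker of these lists was called in limma, and their part in the enzymes' values was not tested.

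**Figure D2:**
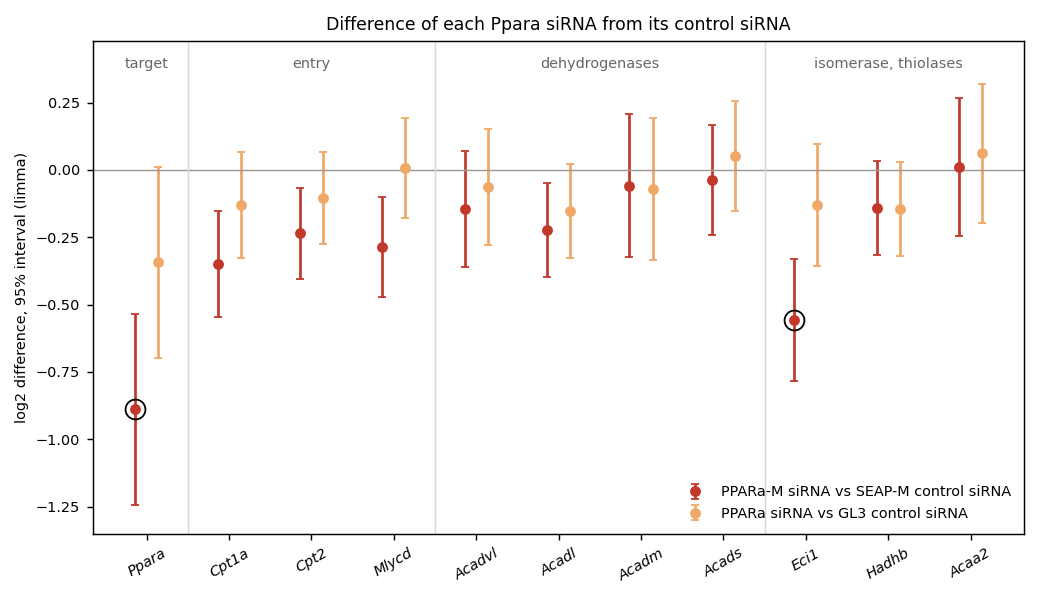
Log2 difference of Ppara and each enzyme (points) with 95% intervals from the limma fit over 20 arrays, for the PPARa-M siRNA against the SEAP-M siRNA and the PPARa siRNA against the GL3 siRNA; rings mark an adjusted p under 0.05. With the PPARa-M siRNA the interval of Eci1 runs from -0.78 to -0.33 and those of Acadm, Acads and Hadhb hold 0, while with the PPARa siRNA the interval of each enzyme holds 0.

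Against the vehicle mice, 4 enzymes were called with the PPARa-M siRNA, all lower, where 7.28% of all genes were called. Eci1 differed by -0.53 ± 0.11 SE (limma adjusted p = 0.00971), Acadl by -0.32 ± 0.08 (0.0270), Cpt1a by -0.35 ± 0.09 (0.0328) and Mlycd by -0.31 ± 0.09 (0.0406). Acadl, which overlapped the SEAP-M mice, read -0.05, 0.02, -0.12 and 0.16 in the vehicle mice, each above all PPARa-M mice. The share of all genes that separated in this way from the vehicle mice was not computed. This comparison shares its PPARa-M mice with the comparison against the SEAP-M mice and is not separate evidence. The count fell to 1 without vehicle mouse A, vehicle mouse D or PPARa-M mouse B, and to 2 without vehicle mouse B. Calls over all genes fell with it, from 1110 to 505 (3.31%), 231 (1.51%), 547 (3.59%) and 925 (6.06%). Eci1 was the gene that kept its call in each of these. The vehicle mice received no siRNA, so an effect of any siRNA and an effect of the Ppara target cannot be told apart in it. Markers of other cells moved in this comparison too. The erythroid marker Alas2 was called lower (-0.63, limma adjusted p = 0.0268), 1 of the 2 measured. The other, Hba-a1, has a probe among those at the shared values described below. Together these 2 markers averaged -0.57 to -0.36 in the PPARa-M mice and -0.30 to 0.04 in the vehicle mice. The cholangiocyte markers averaged 0.21 to 0.47 against -0.17 to 0.14. At an unadjusted p under 0.05, which 23.3% of all genes had in either direction, 3 of these 4 markers were higher. The adipocyte markers averaged -0.36 to -0.07 against -0.05 to 0.08, with 1 of 4 lower at that level. The skeletal muscle markers overlapped, at -0.09 to 0.85 against -0.30 to 0.36, with 1 of 5 higher. In limma 0 of these adipocyte and muscle markers were called. The part of all these markers in the enzymes' differences was not tested.

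With the PPARa siRNA against vehicle, limma called 0 of the 10 (0.0787% of all genes), and 2, Acadl and Eci1, had an unadjusted p under 0.05 (5.55% of all genes). Neither control siRNA gave a call against vehicle. For the SEAP-M siRNA limma called 0 of the 10 (0.00656% of all genes) and for the GL3 siRNA 0 of the 10 (0.0131%), and 0 had an unadjusted p under 0.05 in either. With both Ppara siRNAs set against both controls, limma called 0 of the 10 (0.216% of all genes), 6 had lower levels with an unadjusted p under 0.05 (11.3% of all genes in either direction), and the 10 differed by a median of -0.14. Eci1 came nearest, at -0.34 (adjusted p = 0.0728). It was called without PPARa-M mouse A (-0.39, adjusted p = 0.0254). The difference between the siRNAs, each relative to its own control, was called for 0 of the 10 in limma (0.879% of all genes). Eci1 (-0.43) and Mlycd (-0.29) had an unadjusted p under 0.05 in that test, as did 12.6% of all genes, so the larger fall with the PPARa-M siRNA was not shown to differ from that with the PPARa siRNA after adjustment.

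Probes of the same gene could be compared in 7 of the enzymes. Fitted probe by probe over 23493 probes, limma called 6 of the 27 member probes lower with the PPARa-M siRNA than with the SEAP-M siRNA, where 2.69% of all probes were called. They were 2 of the 5 for Cpt1a (-0.65, adjusted p = 0.0199, and -0.57, adjusted p = 0.0189), 2 of the 4 for Cpt2 (-0.39, 0.0370, and -0.46, 0.0214), 1 of the 3 for Acadvl (-0.48, 0.0209) and the probe of Eci1. The count was 3 without PPARa-M mouse C and 1 without SEAP-M mouse A. Against vehicle 5 member probes were called (6.83% of all probes), 2 of Cpt1a and 1 each of Mlycd, Acadl and Eci1, and the count was 1 without vehicle mouse D and 2 without vehicle mouse A or PPARa-M mouse B. For the PPARa siRNA against the GL3 siRNA limma called 0 of the 27 (0.145% of all probes), and for both siRNAs against both controls 0 of the 27 (0.255%).

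The Cpt1a probes ranged widely. Probe 1 read -0.48, -1.05, -0.28 and -0.29 in the PPARa-M mice and 0.33, 0.10, 0.09 and -0.04 in the SEAP-M mice. Probe 4 read -0.16, -0.21, -0.15 and -0.17 in the PPARa-M mice, a spread far narrower than that of probe 1. In the PPARa mice probe 4 read 0.22, 0.17, -0.0043 and 0.07, and 3 of these 4 values lay above the pool. Relative to the GL3 mice, Cpt1a probes 1, 2 and 3 differed by -0.23, -0.30 and -0.24 with the PPARa siRNA, while probes 4 and 5, which the annotation gives under another transcript accession, differed by 0.13 and 0.0037. Over the 20 arrays probes 1 and 3 followed the mean of the other Cpt1a probes at r = 0.906 and 0.897, and probe 4 at r = 0.314, as a description across arrays. Which transcripts the probes read was not tested.

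Cpt2 probe 3 had a difference in the other direction from its partners, through PPARa-M mouse B. It read 0.48, 1.36, 0.10 and 0.04 in the PPARa-M mice and 0.44, 0.31, 0.05 and 0.34 in the SEAP-M mice, a difference of 0.21, where Cpt2 probes 1, 2 and 4 differed by -0.39, -0.30 and -0.46. Its value in PPARa-M mouse B was its highest in these groups. The other PPARa-M mice, at 0.04 to 0.48, overlapped the SEAP-M mice, at 0.05 to 0.44. The positive sign of the difference therefore rested on mouse B. Its correlation with the mean of the other Cpt2 probes was -0.172 over the 20 arrays, against 0.543 to 0.71 for each of the other 3. The mean over the 4 probes, which gave Cpt2 its adjusted p of 0.122, holds this probe. With the median of the probes in place of their mean, Cpt2 differed by -0.39 (limma adjusted p = 0.0268). A test of whether the probes of a gene moved apart (limma's diffSplice, an F test over 2404 genes with 2 or more probes) called 0 of the 7 enzymes for the PPARa-M siRNA against SEAP-M, where 2.87% of genes were called. Cpt2 (unadjusted p = 0.00279, limma adjusted p = 0.0760), Acadvl (unadjusted p = 0.00421, adjusted p = 0.0956) and Cpt1a (unadjusted p = 0.00895, adjusted p = 0.142) came nearest, and Cpt2 was called without PPARa-M mouse C or D. For the PPARa siRNA against GL3 and for both siRNAs against both controls 0 of the 7 were called, and 0.125% of genes were called in each.

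**Figure D3:**
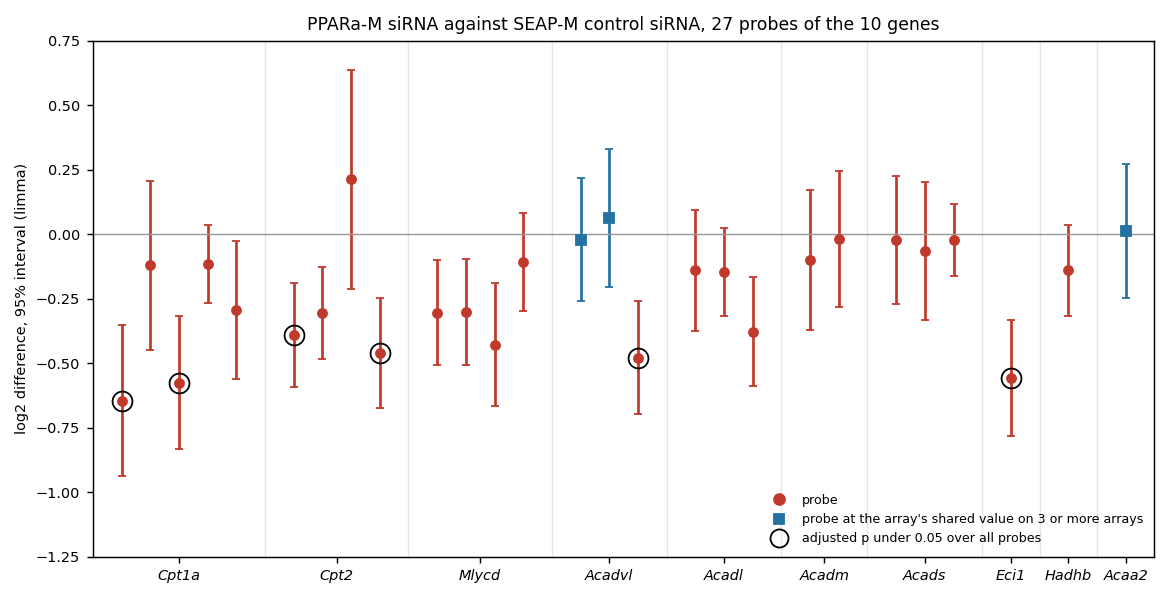
Log2 difference of the 27 member probes, grouped by gene in probe order, for the PPARa-M siRNA against the SEAP-M siRNA, with 95% intervals from limma; rings mark an adjusted p under 0.05 and squares the 3 probes at a shared value on 3 or more arrays. Cpt2 probe 3 lies at 0.21, a positive value that rests on PPARa-M mouse B, among partners at -0.46 to -0.30. The Cpt1a probes spread from -0.65 to -0.12.

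The readings of Acaa2 and of most Acadvl probes carry a limit that the files show directly. On 8 of the 20 arrays (the 4 vehicle mice, PPARa-M mice A, B and C, and PPARa mouse B) 32 to 116 probes stood at an identical log10 ratio (within 0.0002), where neighbouring values held 1.56 to 6.31 probes on average. On 7 of these arrays the shared value lay between -0.44 and -0.24 on the log2 scale, and on PPARa-M mouse B at 0.27. In all, 94 probes of 73 genes stood at it on 3 or more arrays, and abundant liver transcripts (Fabp1, Ahsg, Arg1, Mup3 and Saa1) were among them. Acaa2 did so on 6 arrays, Acadvl probe 1 on 5 and Acadvl probe 2 on 3, and no other member probe on 3 or more.

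Acaa2 read -0.36, 0.27, -0.33 and -0.42 in the PPARa-M mice, the value of 0.27 being the shared value of mouse B. In the vehicle mice it read -0.30, -0.34, -0.37 and -0.44, although the reference was a pool of vehicle mice. Over the 20 arrays Acaa2 followed the median of the other 91 such probes at r = 0.942, Acadvl probe 1 at r = 0.881 and probe 2 at r = 0.905, and Acadvl probe 3 at r = 0.033. Acaa2 and Acadvl probes 1 and 2 were picked for standing at the shared value on these same arrays. Their high r, and its contrast with probe 3, therefore largely restate that choice. Acadvl probe 3 read -0.11, -0.13, -0.34 and -0.27 in the PPARa-M mice, 0.56, 0.18, 0.12 and 0.21 in the SEAP-M mice, and between -0.03 and 0.05 in the vehicle mice. It separated the PPARa-M mice from the SEAP-M mice without overlap. By gene means, 6.36% of all genes separated in that direction, and the share over single probes was not computed. With the probes at shared values left out, a choice made after seeing the data, Acadvl rested on probe 3 alone and differed by -0.48 (limma adjusted p = 0.0212), so that 2 of the enzymes were called, Acadvl and Eci1. Why values were shared was not tested.

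**Figure D4:**
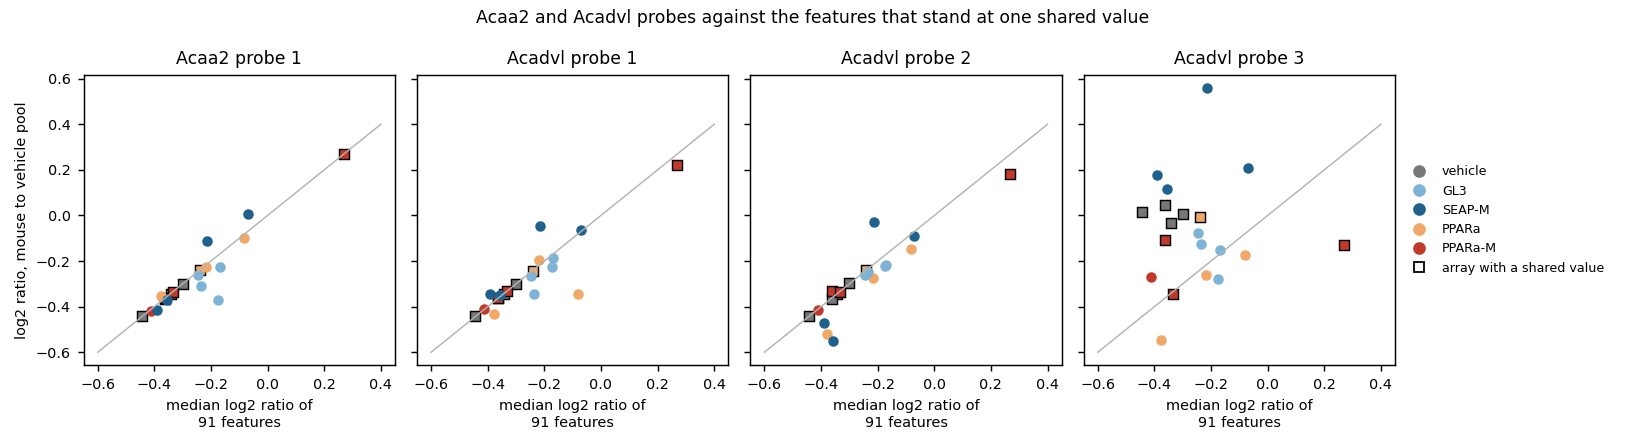
Log2 ratio of Acaa2 and of the 3 Acadvl probes in each mouse (vertical axes) against the median log2 ratio of the 91 other probes that stood at a shared value on 3 or more arrays (horizontal axes), with the line of equality. Squares are the 8 arrays with a shared value. Acaa2 and Acadvl probes 1 and 2 lie near the line (r = 0.942, 0.881 and 0.905), and Acadvl probe 3 does not (r = 0.033). Acaa2 and Acadvl probes 1 and 2 were themselves picked for standing at a shared value on these arrays.

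Within groups, the enzymes could be set against Ppara mouse by mouse. In a limma fit of each gene on the Ppara level with a term for each group, 0 of 15251 genes were called (0%), and 0 of the 10 enzymes. The slopes of Cpt1a (0.40 ± 0.10 SE, log2 per log2 of Ppara), Eci1 (0.42 ± 0.12) and Mlycd (0.32 ± 0.10) had an unadjusted p under 0.05, with limma adjusted p of 0.182, 0.198 and 0.218. Those of the other 7 lay between -0.12 and 0.12. With the 2 mice farthest from their group means in Ppara left out (SEAP-M mouse A and PPARa-M mouse B), all 10 slopes were positive, from 0.03 for Acads and Acadvl to 0.48 for Eci1, with limma adjusted p of 0.950 or more. Mlycd stood at 0.43, and Cpt1a (0.27) no longer stood apart from Cpt2 (0.28) or Acadm (0.25). Without SEAP-M mouse A alone the slope of Acadm was 0.51, beside 0.52 for Cpt1a, 0.56 for Eci1 and 0.45 for Mlycd. The contrast between Acadm and these genes therefore depended on which mice were kept. With both mice left out, Eci1 and Mlycd again had larger slopes than Acadm. The array of a mouse gives both its values, so errors shared by an array enter both.

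**Figure D5:**
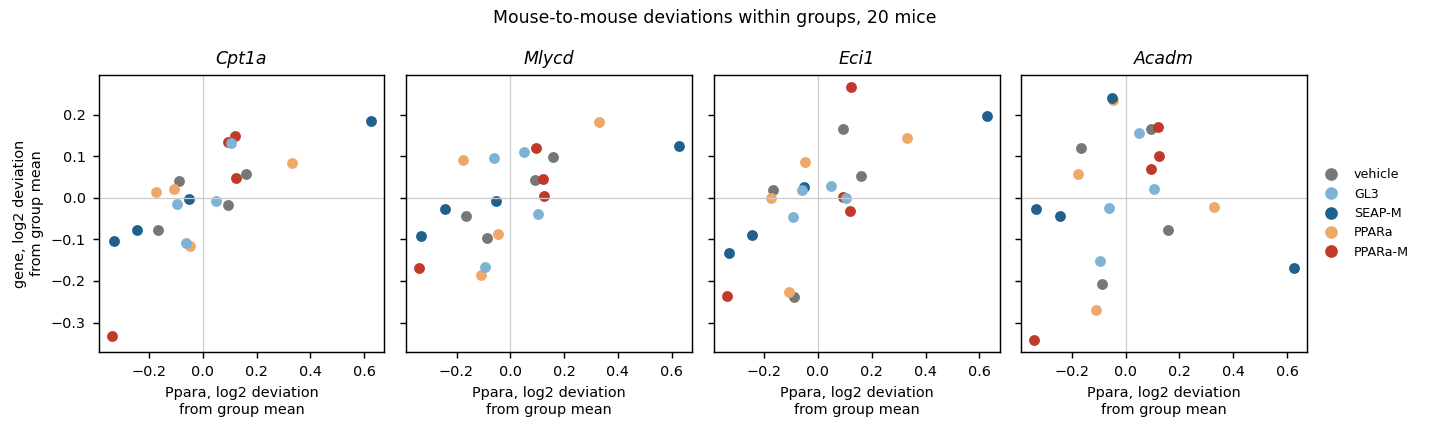
Deviation of Cpt1a, Mlycd, Eci1 and Acadm from the group mean (vertical axes) against that of Ppara (horizontal axes) in the 20 mice, both in log2, coloured by group. SEAP-M mouse A, with a Ppara deviation of 0.63, and PPARa-M mouse B, with -0.34, are the outermost points, and the slope of Acadm, 0.09 over all mice, was 0.51 without SEAP-M mouse A.

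Across the 20 arrays some enzymes followed each other and others did not, as a description over mice of 5 groups on shared arrays. Mlycd and Eci1 (r = 0.817), Cpt2 and Acadvl (0.786), Cpt1a and Eci1 (0.776), and Acadl and Eci1 (0.775) were the closest pairs. Acadl and Acaa2 (r = -0.534) and Acadm and Acaa2 (-0.506) ran most against each other, and Acaa2 is a gene with shared values.

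The other genes of the pathway were read from lists. Of the genes that carry fatty acids to the mitochondrion and activate them, 15 were measured, and 0 were called in limma for the PPARa-M siRNA against SEAP-M, where 2.54% of all genes were called. An unadjusted p under 0.05 was reached by 5 in the lower direction and 2 in the higher, and by 18.8% of all genes. The median was -0.09. This list holds Fabp1, Dbi and Slc27a2, which have a probe among those at shared values. Acsl5, a long-chain acyl-CoA synthetase, differed by -0.67 (limma adjusted p = 0.0526), Slc27a5, an acyl-CoA synthetase of bile acid conjugation, by -0.34 (0.0764), Acsm3, a medium-chain synthetase, by -0.41 (0.0891), and Slc27a2, a very long-chain synthetase whose probe is among those at shared values, by -0.24 (0.123).

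Of the other enzymes of the matrix, 21 were measured. In limma 1 of the 21 was called, against 2.54% of all genes, and was lower. It was Hsd17b10 (-0.31, adjusted p = 0.0370), a dehydrogenase of branched and short chains. With an unadjusted p under 0.05 there were 8, each lower, against 18.8% of all genes in either direction. The median difference was -0.15, and this list holds Hadh, which has a probe among those at shared values. Ech1, a dienoyl-CoA isomerase, differed by -0.38 (limma adjusted p = 0.0594), Acad10, a member of the acyl-CoA dehydrogenase family, by -0.37 (0.0730), and Echs1, the short-chain hydratase of the cycle, by -0.26 (0.115). Ketone body genes had 3 measured members, Bdh1 (-0.54, limma adjusted p = 0.0956), Acat1 (-0.36, 0.142) and the monocarboxylate transporter Slc16a1 (-0.25, 0.251). None of the 3 was called in limma, and all 3 had an unadjusted p under 0.05, which 18.8% of all genes had. Acat1 is also on the list of matrix enzymes and is counted in both.

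Among 21 measured genes of the pathway's control, limma called 2 lower (2.54% of all genes were called), the targeted gene Ppara itself and Pparg (-0.37, adjusted p = 0.0106), a related receptor best known in fat. An unadjusted p under 0.05 was reached by a further 3 genes that were lower and 3 that were higher, where 18.8% of all genes reached it, around a median of -0.04. Prkag1, a subunit of AMP-activated kinase, differed by -0.22 (limma adjusted p = 0.159) and Angptl4, an inhibitor of lipoprotein lipase, by -0.88 (0.212). For the PPARa siRNA against GL3 limma called 0 in each of the 4 lists, and 1 lower and 1 higher gene of the first list and 1 lower of the matrix list had an unadjusted p under 0.05 (4.95% of all genes).

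Against vehicle, the PPARa-M siRNA mice had 6 of the 21 matrix enzymes called, all lower, in limma, where 7.28% of all genes were called. They included Echs1 (-0.43, adjusted p = 0.0104), Hsd17b10 (-0.33, 0.0171), Pccb, a subunit of propionyl-CoA carboxylase (-0.32, 0.0210), and Acad10 (-0.43, 0.0254). Of the transport and activation genes 2 were called lower, Acsm3 (-0.51, 0.0245) and Slc27a5 (-0.34, 0.0486), and 1 higher, Crat, the carnitine acetyltransferase (0.26, 0.0204). Of the control genes 3 were called lower, Ppara, Pparg (-0.44, 0.00272) and Prkag1 (-0.30, 0.0428), and of the ketone body genes 0, by limma in each case.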

How the data were processed

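Liver RNA of 20 mice, 4 in each of 5 groups, was hybridised on 2-colour arrays against a pool of RNA from 4 vehicle mice. The authors deposited a log10 ratio for each probe and array, limited to -2 to 2. The scanner, background correction and normalization are not given in the sources used here. Ratios were converted to the log2 scale, and the probes of a gene were averaged after naming by the platform annotation, in which 65 probes had several symbols and 4638 none. Gene means were fitted with limma 3.58.1 (R 4.3.3; group means, eBayes, Benjamini-Hochberg over 15252 genes or 23493 probes), which was also tested on simulated data. A gene or probe was called at an adjusted p under 0.05. Alternatives were another probe summary, scaling, array weights, fewer groups, a stricter threshold and leaving out each mouse. Groups came from the sample titles. The genes named are the 10 members, Ppara and, from each list, up to 4 with the smallest p. Members and lists were chosen with earlier results of these data known. Tables and plots used Python 3.11.15 with pandas 2.3.3 and matplotlib 3.10.9.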

Additional observations from a re-analysis of the deposited data

Results flagged for a closer look

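Among the 55 combinations of a gene (the 10 enzymes and Ppara) and a group of 4 mice, 4 held a mouse whose gap to its nearest neighbour, as a share of the group's range, was above Dixon's 95% critical value. Chance alone flags about 1 in 20 groups. Ppara in PPARa-M siRNA mouse B stood at -1.05 (share 0.935), below the other 3 mice at -0.62 to -0.59. In Acaa2 the same mouse stood at 0.27 (0.876), above the others at -0.42 to -0.33, and this is the value that many probes of that array share. Acadl in PPARa siRNA mouse C stood at -0.045 (0.886), above the others at -0.23 to -0.21. Hadhb in PPARa siRNA mouse D stood at -0.31 (0.833), below the others at -0.09 to -0.05.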

How the results depend on the processing

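The count of enzymes called for the PPARa-M siRNA against SEAP-M was 1 and became 0 under quantile normalization, with equal interquartile ranges, with only the groups compared and at an adjusted p under 0.01, and 2 with the median of a gene's probes (Cpt2 and Eci1) or without probes at shared values. Against vehicle the 4 became 0, 0 and 0 under the first 3 of these settings, 1 at 0.01, and 2 with array weights or the median of probes. Ppara kept its direction but lost its call against SEAP-M under quantile normalization (-0.74), equal ranges (-0.64), only the groups compared (-0.89) and 0.01 (-0.89). With both siRNAs pooled Ppara differed by -0.62 (limma adjusted p = 0.0410), and lost its call under the same settings (-0.56, -0.51, -0.62 and -0.62) and with Ppara probe 1 alone (-0.61) or probe 2 alone (-0.61). For member probes, both 6 against SEAP-M and 5 against vehicle became 0 under quantile normalization and equal ranges, and the 6 became 1 with gene means. With array weights the pooled comparison called 1 gene (Eci1) and 3 probes. Array weights also raised the calls over all genes against SEAP-M, as given below. The shares of all genes and probes called under these settings in the vehicle and pooled comparisons are not given here. Without a term for the group, 4 enzymes had a called slope on Ppara, as did 1433 of 15251 genes. The slope then holds the differences between groups.

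Leaving out each mouse of the groups compared in turn, the enzymes called against vehicle ranged from 1 to 4 and in the pooled comparison from 0 to 1. Pooled Ppara ranged from -0.67 to -0.51 (limma adjusted p 0.0243 to 0.110), its call being lost without PPARa-M mouse B, C or D, PPARa mouse B, C or D, SEAP-M mouse C or any GL3 mouse. Member probes called ranged from 1 to 6 against SEAP-M, 1 to 5 against vehicle and 0 to 1 pooled, and enzymes whose probes differed from 0 to 1. Over all genes the calls against SEAP-M were 230 lower and 158 higher, 1 and 0 under quantile normalization, 5 and 4 with equal ranges, 28 and 13 with only the groups compared, 43 and 28 at 0.01, and 425 and 321 with array weights. No called value changed direction under any alternative run. With the mouse letter as a replicate block the counts were 1 against SEAP-M and 4 against vehicle, with 6 member probes in each. The shares of all genes and probes called with this block are not given here. The 40 same-letter pairs had a median correlation of -0.0178 (-0.2005 to 0.312), and 13 of them were above 0.1. Pairs with different letters had a median of 0.0052. These values gave no clear sign that the letters pair the mice.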
